A study of Homo sapiens with 6 samples.

Results

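The genes described here encode the subunits of oxidative phosphorylation, the 5 protein complexes of the inner mitochondrial membrane. They were chosen by symbol from the deposited gene table: the NDUFA, NDUFB, NDUFC, NDUFS and NDUFV genes of complex I, the SDH genes of complex II, the UQCR genes and CYC1 of complex III, 10 COX genes of complex IV, the ATP5 genes of complex V that fit a pattern of present-day names, and the protein-coding genes of the mitochondrial genome. The table had 63236 rows, of which 81 matched, and these carried 75 distinct symbols. An adjusted p-value was present for 75 of the 81 rows, 62 of them nuclear and 13 mitochondrial. Of the other 6 rows, 5 were listed at a mean of 0 (4 further identifiers of NDUFA6 and 1 of NDUFA3), and the last was a second SDHD entry at a mean of 4.14 normalized counts, a readthrough locus whose recovered reads were 2, 5 and 5 in the control libraries and 3, 5 and 5 in the others.

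Complex I passes electrons from NADH and complex II from succinate to ubiquinone, complex III moves them on to cytochrome c, and complex IV hands them to oxygen. Complexes I, III and IV pump protons across the membrane, and complex V uses the gradient to make ATP. The mitochondrial genome encodes only a small set of hydrophobic core subunits of complexes I, III, IV and V, so each of these is built from the products of both genomes, whereas complex II is encoded wholly in the nucleus.

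RNA came from FUJIOKA, a human acute myeloid leukaemia (AML) cell line, in 3 libraries with a scrambled control shRNA (shNEG) and 3 with an shRNA against SPINK2 (shSPINK2), a protease inhibitor gene of immature blood cells. In both groups the shRNA came from a lentiviral vector that doxycycline switches on in stably transduced cells. The labels name 2 SPINK2 shRNAs and the methods 1, and the labels do not say which was in which library. The results therefore rest on 1 cell line with 1 control construct, and nothing in the labels says whether libraries of a group came from separate cultures, so p-values may measure technical spread alone. How long cells were on doxycycline before RNA extraction is not given in the sources used here.

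The deposited table gave for each gene 1 mean normalized count over all 6 libraries, with a log2 fold change, the standard error (SE) of that change and the adjusted p-value of the authors' DESeq2 Wald test. The direction, shSPINK2 against shNEG, was read from the silenced gene, as the table does not name it. It held no value per library, and the mean of each group was computed here from the overall mean and the fold change. A gene is called when its adjusted p-value is under 0.05. The means summed to 38425214 normalized counts. For genes with a mean under 100, the reads of each library were recovered from the mean. SPINK2 itself had 53, 56 and 63 reads per library with shNEG and 6, 7 and 9 with shSPINK2, a log2 fold change of -2.98 (SE 0.409, adjusted p = 2.41e-12), and the groups did not overlap. Of 8 markers of leukaemic myeloid cells 7 had an adjusted p-value, with SPI1 at a mean of 10672, PTPRC at 9179 and CD34 at 19.6, and KIT had none. CD33 (0.36), PTPRC (0.33) and FLT3 (0.30) were higher and MPO (-0.40) lower on the log2 scale, and their part in the results below was not tested. Of 10 markers of other cell types 2 had one, among them COL1A1 at a mean of 149, and the defining genes HBB, HBA1, EPCAM, KRT18 and ALB were at 0. COL1A1 was lower in shSPINK2 at -0.61 (SE 0.152), which was likewise not tested for a part in the results.

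Nuclear genes of oxidative phosphorylation were more often higher than lower after SPINK2 silencing, by small amounts, whereas no mitochondrial gene was called. Among the 62 nuclear members, 35 were higher (56.5%) and 13 lower (20.97%), with a median log2 fold change of 0.13. Over all 17395 genes tested, 47.1% were called, 22.7% as higher and 24.4% as lower, and the median was 0.01. Since most members are abundant, the 7000 genes whose mean was 1000 or more are the closer background: 70.8% of them were called, 32.9% as higher and 37.9% as lower. Of the 666 genes with a mean of 10000 or more, 46.2% were higher and 35.9% lower, so more abundant genes were more often higher. The median mean was 4091 in the nuclear members and 2724 in the 7000 genes, so this background is not fully matched. GENCODE 44 marks 19 of the 62 as overlapping another locus, which makes their counts less certain, and these held 6 of the higher and 8 of the lower genes, SDHD and NDUFS1 among them. The other 43 had 29 higher and 5 lower. Of the 54 nuclear members with a mean of 1000 or more, 31 were higher and 12 lower, or 57.4% and 22.2%. The changes themselves were small. The absolute log2 fold change had a median of 0.20 in nuclear members, against 0.22 over all genes with a mean of 1000 or more. Of the 62, 59 lay within 0.5 of zero. Past a log2 fold change of 1 in either direction, where 4.28% of all genes tested were called, stood 1 member, SDHD. In bulk RNA, fewer cells of a type and less RNA per cell cannot be told apart.

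**Figure D1:**
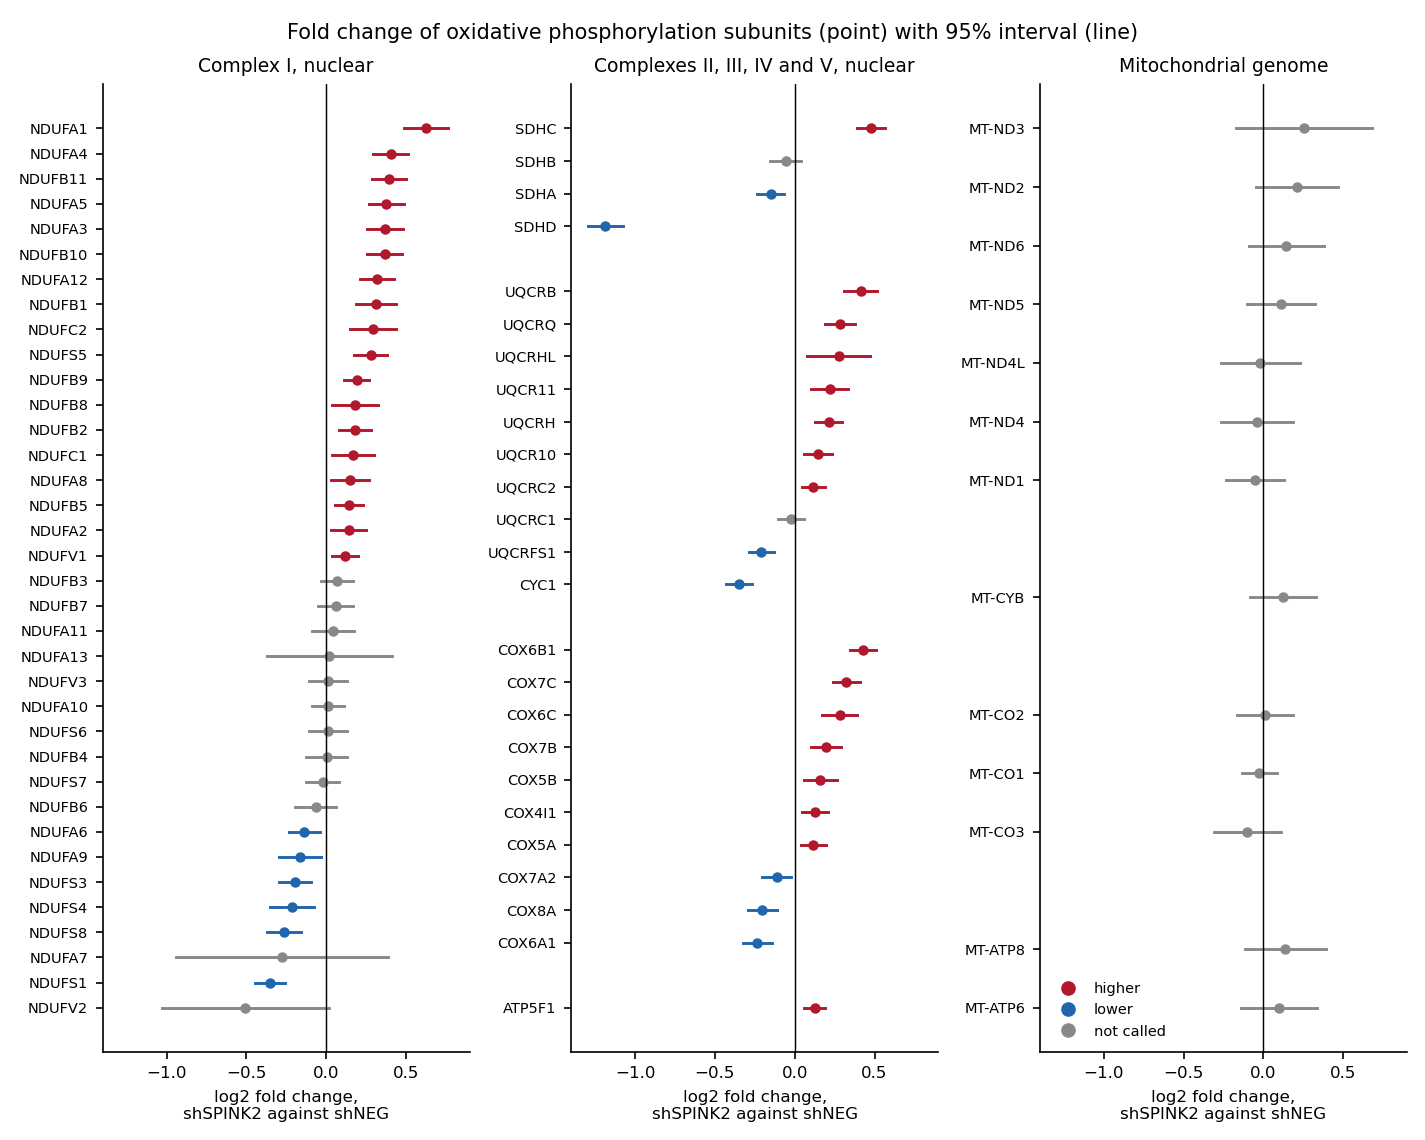
Log2 fold change of shSPINK2 against shNEG (x axis) for the subunits named on the y axis, with points for the value in the authors' deposited table and lines for the 95% interval, coloured by call. The nuclear subunits called as higher outnumbered the 13 called as lower, SDHD stood apart at -1.19, and all 13 mitochondrial intervals crossed 0.

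Complex II showed the widest spread of all. It is the enzyme that the respiratory chain shares with the tricarboxylic acid cycle, and has 4 subunits: the flavoprotein SDHA and iron-sulfur protein SDHB form the catalytic head, and SDHC and SDHD anchor it in the membrane. SDHD fell from a group mean of 5549 normalized counts in shNEG to 2439 in shSPINK2, a log2 fold change of -1.19 (SE 0.055, adjusted p = 8.54e-102), or 0.44 times the control level. SDHC rose from 6640.2 to 9245, a log2 fold change of 0.48 (SE 0.044, adjusted p = 2.09e-26). The 2 anchor genes, whose products sit side by side in the complex, therefore moved in opposite directions, and their 95% intervals (-1.29 to -1.08 and 0.39 to 0.56) were far apart. SDHA was slightly lower at -0.15 (SE 0.042, adjusted p = 0.00106), and SDHB was not called at -0.06 (SE 0.049).

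SDHD lies at chr11:112086824-112120016 on the plus strand of GRCh38, head to head with TIMM8B, a gene for a mitochondrial import chaperone on the minus strand, and 25 bases separate both annotated genes. TIMM8B was at 1990.3 and 1967 normalized counts in shNEG and shSPINK2, and its log2 fold change of -0.02 (SE 0.054) was not called. The annotated SDHD locus also overlaps the readthrough entry named above, which had a mean of 4.14 normalized counts.

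The promoters of SDHD and of NDUFA1, the members with the lowest and the highest fold change among the 48 called, are shown from 250 bases before to 50 bases after the RefSeq start (GRCh38.p14, plus strand). Capitals mark words of 3 regulators of respiratory genes, searched on both strands: GCGCATGC for nuclear respiratory factor 1 (NRF1), CCGGAAG for ETS factors such as GABPA, and AAGATGG for YY1. In SDHD the capitals of the first run are the NRF1 word overlapping its own reverse complement, and the second run is the ETS word on the minus strand. NDUFA1 has the ETS word on the minus strand.

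SDHD, chr11:112086623-112086922: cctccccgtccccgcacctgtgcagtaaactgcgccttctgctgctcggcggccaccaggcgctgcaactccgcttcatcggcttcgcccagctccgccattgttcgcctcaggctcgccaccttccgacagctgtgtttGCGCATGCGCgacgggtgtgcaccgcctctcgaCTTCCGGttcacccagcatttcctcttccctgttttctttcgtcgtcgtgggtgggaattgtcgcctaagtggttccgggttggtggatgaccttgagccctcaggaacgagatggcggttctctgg

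NDUFA1, chrX:119871582-119871881: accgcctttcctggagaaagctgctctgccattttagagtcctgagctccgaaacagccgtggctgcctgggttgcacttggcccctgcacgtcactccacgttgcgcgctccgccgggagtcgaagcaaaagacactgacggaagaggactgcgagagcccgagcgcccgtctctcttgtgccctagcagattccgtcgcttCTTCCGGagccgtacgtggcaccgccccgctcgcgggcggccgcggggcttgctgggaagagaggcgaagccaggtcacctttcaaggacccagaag

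A RefSeq promoter was found for 63 of 78 nuclear subunits, the complex V subunits under older symbols included. Subunits without one, SDHC, UQCRB, NDUFA4 and CYC1 among them, are left out of the shares and medians below. The NRF1 word was in 13 of them (20.6%, against 3.05% of all 35116 promoters), the ETS word in 20 (31.7%, against 10.3%) and the YY1 word in 16 (25.4%, against 5.84%). At least 1 of these words was in 37 of the 63 promoters, or 58.7%, against 17.6% of all promoters. All promoters were taken without regard to expression, whereas most subunit genes are abundant, so the comparison is between unlike sets. The median log2 fold change of the subunits with a word was 0.00 for NRF1, 0.09 for ETS and 0.05 for YY1, and those without it had medians of 0.12 in each case. The NRF1 and ETS words occurred together in SDHD (-1.19), SDHB (-0.06), COX6A1 (-0.23) and COX5B (0.16) and in the complex V genes ATP5ME (0.25) and ATP5PF (0.24), whose fold changes had no common sign. A word match is a description of letters, and binding was not measured.

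Complex I has the most subunits, a catalytic core surrounded by accessory subunits that stabilise it. Of its 37 nuclear members with an adjusted p-value, 19 were higher, 6 were lower and 12 were not called, with a median log2 fold change of 0.12. With 67.6% called, against 70.8% of all genes with a mean of 1000 or more, complex I was near the background in the share called. By direction, 51.4% were higher and 16.2% lower, against 32.9% and 37.9% of those genes. The highest was NDUFA1, an X-linked accessory subunit of the membrane arm, which rose from 2102 to 3244 normalized counts, a log2 fold change of 0.63 (SE 0.070, adjusted p = 5.61e-18). NDUFA4 followed at 0.40 (SE 0.055, adjusted p = 1.83e-12). It is named for complex I, although its protein is now assigned to complex IV, and with NDUFA4 moved there the median of complex I was 0.09. NDUFB11 was also higher, at 0.39 (SE 0.055, adjusted p = 8.00e-12), and NDUFA5 at 0.38 (SE 0.056, adjusted p = 8.71e-11).

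The lowest called genes of complex I, NDUFS1 and NDUFS8, belong to the catalytic core. Of all its lower genes, 3 were core and 3 accessory subunits. NDUFS1, the largest iron-sulfur subunit, fell from 7813 to 6119.6 normalized counts, a log2 fold change of -0.35 (SE 0.048, adjusted p = 2.46e-12). NDUFS8, another iron-sulfur subunit, fell by 0.26 (SE 0.054, adjusted p = 3.73e-06). NDUFV2 and NDUFA7 were also among the 4 lowest values, at -0.51 (SE 0.267) and -0.28 (SE 0.339), and neither was called at means of 47.1 and 28.9 normalized counts.

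Those low members can be seen library by library. NDUFV2, an iron-sulfur subunit beside the NADH site, had 51, 56 and 59 reads in shNEG and 35, 37 and 46 in shSPINK2. The groups did not overlap, which gives the exact permutation test of 3 against 3 its smallest possible p of 0.1 (two-sided). How many other genes had groups without overlap was not counted, and NDUFV2 was not called. NDUFA7 had 26, 31 and 38 reads in shNEG and 24, 27 and 28 in shSPINK2, with overlapping groups. NDUFA13, an accessory subunit also known as GRIM-19, had 83, 89 and 93 reads in shNEG and 74, 95 and 102 in shSPINK2, again overlapping, with the widest range in shSPINK2. All 3 are among the 19 members marked as overlapping another locus, such as RPS28 beside NDUFA7 at a mean of 15145, so that their counts are uncertain. The other 34 nuclear members of complex I had means of 752 normalized counts or more.

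**Figure D2:**
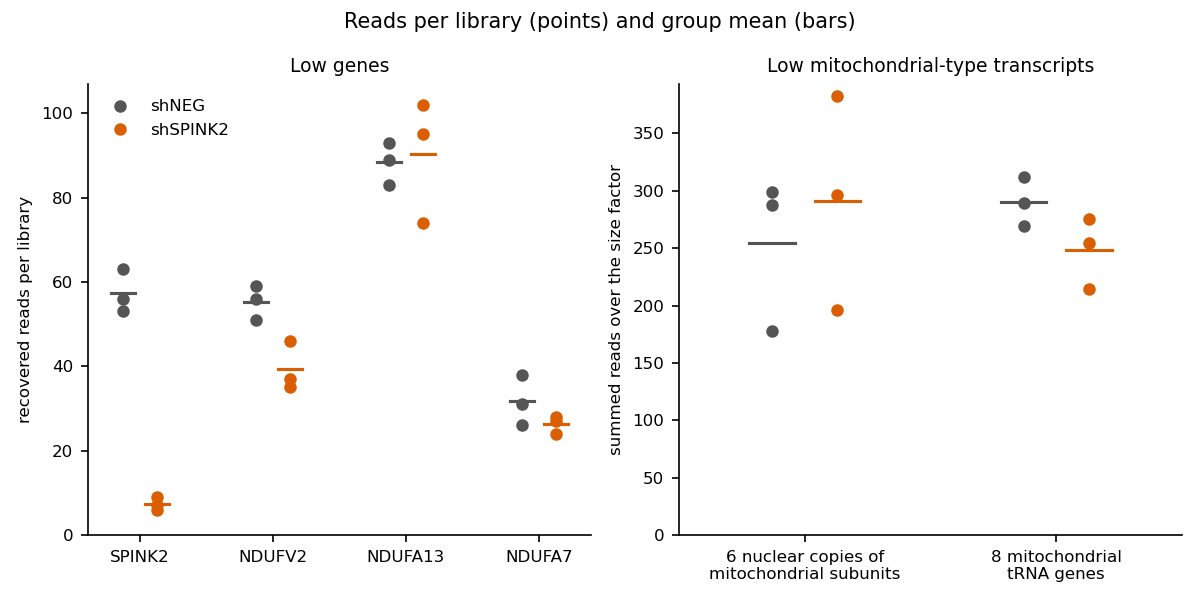
Recovered reads per library (y axis, left) of SPINK2 and the 3 low complex I genes, and reads divided by the size factor (y axis, right) summed over nuclear copies of mitochondrial subunit genes and over mitochondrial tRNA genes, with points for libraries and bars for group means. SPINK2 and NDUFV2, the latter not called, had groups that did not overlap. The copies ranged from 177 to 299 in shNEG and from 196 to 382 in shSPINK2.

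By their names, which in complex I follow biochemical fractions, the NDUFB genes of the membrane arm had 7 of 11 higher and none lower, whereas the NDUFS genes had 2 of 8 higher and 4 lower. By the authors' DESeq2 test the NDUFB genes at an unadjusted p under 0.05 were also 7, none of them lower. Called were 63.6% of the NDUFB and 75% of the NDUFS genes, against 70.8% of all genes with a mean of 1000 or more. Of the NDUFS genes 25% were higher and 50% lower, and of those background genes 32.9% and 37.9%. The 13 NDUFA genes had 7 higher and 2 lower, and both NDUFC genes were higher. Of the 3 NDUFV genes 1 was called, NDUFV1, the NADH-binding flavoprotein, at 0.12 (SE 0.042, adjusted p = 0.0117).

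Complex III had 7 of 10 nuclear members higher and 2 lower, with a median log2 fold change of 0.18. Its shares of 70% higher and 20% lower stood against 32.9% and 37.9% of all genes with a mean of 1000 or more. Both lower genes encode its nuclear redox subunits. CYC1, which is cytochrome c1, fell from 10586 to 8301 normalized counts, a log2 fold change of -0.35 (SE 0.042, adjusted p = 6.45e-16), and UQCRFS1, the Rieske iron-sulfur protein, fell by 0.21 (SE 0.040, adjusted p = 5.76e-07). The 4 highest were UQCRB, the ubiquinone-binding subunit, at 0.41 (SE 0.053, adjusted p = 3.99e-14), UQCRQ at 0.28 (SE 0.048), UQCRHL at 0.27 (SE 0.101) and UQCR11 at 0.22 (SE 0.060), each of them called. UQCRHL is an intronless copy of UQCRH, which was itself higher at 0.21 (SE 0.043), so that reads of both cannot be told apart with certainty. Among the other low values, UQCRC1 (-0.03, SE 0.042) was not called, whereas its partner UQCRC2 was slightly higher at 0.12 (SE 0.037). Weighted by 1/SE squared, the mean of complex III was 0.06.

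In complex IV, cytochrome c oxidase, the 10 nuclear members were all called, 7 as higher and 3 as lower, with a median log2 fold change of 0.14. Of all genes with a mean of 1000 or more, 70.8% were called, 32.9% as higher and 37.9% as lower. At a mean of 10000 or more, 82.1% were called. COX6B1, which helps to hold the dimer together, rose from 10063 to 13529 normalized counts, a log2 fold change of 0.43 (SE 0.042, adjusted p = 5.40e-23). COX7C (0.32, SE 0.043), COX6C (0.28, SE 0.055) and COX7B (0.20, SE 0.048) were also higher. The 3 lower genes were COX6A1 at -0.23 (SE 0.047, adjusted p = 3.43e-06), COX8A at -0.20 (SE 0.045, adjusted p = 2.92e-05) and COX7A2 at -0.11 (SE 0.048, adjusted p = 0.0369). COX5A (0.12, SE 0.039) was the lowest of the 7 higher genes. The isoform genes COX4I2 and COX6A2 were at a mean of 0, and COX7A1 and COX8C were under 5 normalized counts. COX7A2 was the only named member whose call was lost when the fold changes were centred on protein-coding genes outside the members, at -0.11 before and -0.10 after. That call was also lost at a threshold of 0.01 and, with an adjusted p of 0.068, when p-values were adjusted over every gene that had one.

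For complex V, the ATP synthase, the table used older symbols, and only ATP5F1, now called ATP5PB, fit the pattern. ATP5F1, a subunit of the peripheral stalk, was higher at 0.12 (SE 0.035, adjusted p = 0.00102). Matching by Ensembl identifier found 17 more subunit genes, a set chosen after the values were seen, and 16 of them had an adjusted p-value. Of these, 8 were higher and 2 lower, with a median of 0.15. The shares were 50% and 12.5%, against 32.9% and 37.9% of all genes with a mean of 1000 or more. ATP5E, the epsilon subunit of the central stalk, had the largest rise at 0.45 (SE 0.046), followed by ATP5G2 at 0.42 (SE 0.049), 1 of 3 genes for the same ring subunit c. The other 2 differed from it: ATP5G1 was not called at 0.05 (SE 0.041), and ATP5G3 was lower at -0.13 (SE 0.038). ATP5C1, the gamma subunit that turns within the head, was lower at -0.19 (SE 0.045). The alpha subunit ATP5A1 was higher at 0.16 (SE 0.036), whereas the beta subunit ATP5B, which carries the catalytic sites, was not called at -0.09 (SE 0.040). ATP5L2, the one without an adjusted p-value, had 1, 4 and 4 reads in shNEG and 0, 1 and 5 in shSPINK2.

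The conserved catalytic core subunits of complexes I to III had other counts than the remaining nuclear subunits, called accessory here. This grouping was made after the values were seen and is given without a test. Of 13 nuclear core subunits (7 of complex I, the 4 of complex II, CYC1 and UQCRFS1), 3 were higher and 7 lower, with a median log2 fold change of -0.20. Of the 49 accessory subunits, 32 were higher and 6 lower, with a median of 0.15. Higher and lower were 23.1% and 53.8% of the core and 65.3% and 12.2% of the accessory subunits. Among all genes with a mean of 1000 or more, 32.9% were higher and 37.9% lower. Within complex I alone, the 7 core genes had 2 higher and 3 lower with a median of -0.20, and the 30 accessory genes had 17 higher and 3 lower with a median of 0.15. SDHC and NDUFV1, described above, were among the core genes that were higher. Without complex II the count was 2 higher and 5 lower of 9. Without the members marked as overlapping another locus, 3 core subunits were higher and 3 lower, and 26 accessory subunits were higher and 2 lower.

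**Figure D3:**
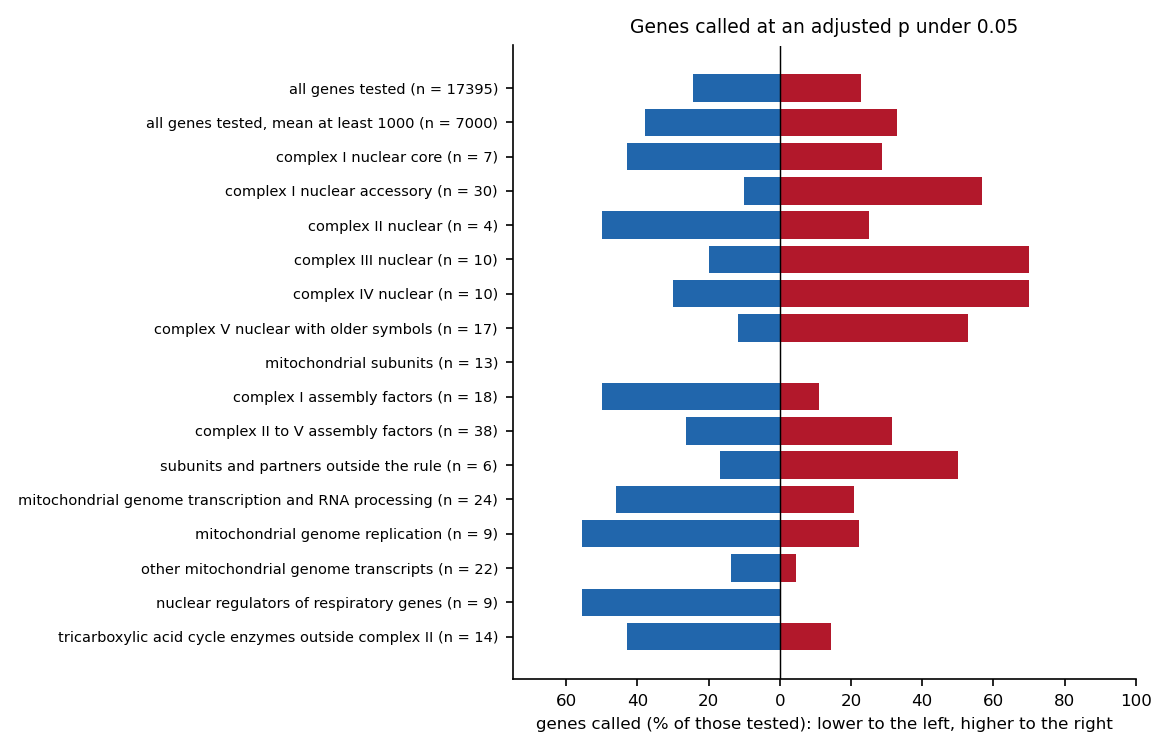
Share of tested genes called as higher (red, to the right) and lower (blue, to the left) in percent (x axis) for all genes, each group of subunits and each further list (y axis, with the number tested). The accessory subunits of complex I had 56.7% higher and 10.0% lower, while the complex I core had 42.9% lower and no mitochondrial subunit was called.

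The 13 mitochondrial genes, which encode subunits of the membrane cores of complexes I, III, IV and V, were not called in either direction by the authors' DESeq2 Wald test, the only tool run, also at an unadjusted p under 0.05, where the count was 0. Their log2 fold changes lay between -0.10 and 0.26 with a median of 0.10, close to the nuclear median of 0.13. In complex I, MT-ND3 had group means of 14688 and 17533 normalized counts in shNEG and shSPINK2, a log2 fold change of 0.26 (SE 0.218). MT-ND2 was at 0.21 (SE 0.131), MT-ND6 at 0.14 (SE 0.119) and MT-ND5 at 0.11 (SE 0.108). The other complex I genes were nearer to 0, with MT-ND4L at -0.02 (SE 0.126), MT-ND4 at -0.04 (SE 0.116) and MT-ND1 at -0.05 (SE 0.093). MT-ND6 is the only one of these genes on the light strand.

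MT-CYB, the mitochondrial subunit of complex III, was at 0.12 (SE 0.106). The catalytic subunits of complex IV were at -0.03 (SE 0.056) for MT-CO1, 0.01 (SE 0.089) for MT-CO2 and -0.10 (SE 0.107) for MT-CO3. In complex V, MT-ATP8 was at 0.14 (SE 0.13) and MT-ATP6 at 0.10 (SE 0.120), and both genes overlap on the same transcript, as do MT-ND4L and MT-ND4. The narrowest 95% interval was that of MT-CO1, from -0.14 to 0.08, and the widest that of MT-ND3, from -0.17 to 0.68. From the value to either end, the 95% intervals spanned 0.11 to 0.43, against a median absolute change of 0.20 in nuclear members, so that changes as small as most nuclear ones were hard to detect in most mitochondrial genes at this precision. Summed over the 13 genes, the group means were 1027219 and 1039649 normalized counts, a ratio of 1.01, and over the 62 nuclear members 292713 and 315116, a ratio of 1.08. These sums carry no error, as the table has no value per library.

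The standard errors of mitochondrial genes were larger than their abundance would give elsewhere in the table. Their median SE was 0.116, against 0.053 in nuclear members and 0.042 over the 666 genes with a mean of at least 10000. Of those 666 genes, 24 had an SE over 0.08, and 12 of the 24 were mitochondrial members. MT-CO1 was the exception at 0.056. Of the other 12 genes, 10 were named as ribosomal protein genes or their copies.

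Reads per library could be recovered only for low transcripts with mitochondrial sequence, which were chosen after their values were seen. The nuclear genome holds copies of mitochondrial subunit genes, and 6 such copies with means between 15 and 100 gave reads per library. Divided by the size factors and summed, they reached 177, 288 and 299 with shNEG and 296, 382 and 196 with shSPINK2. The lowest library of each group was about as low as that of the other, and the groups overlapped. The 8 mitochondrial tRNA genes in the same range of means summed to 289, 312 and 269 in shNEG and 276, 255 and 214 in shSPINK2, in the same order of libraries, with less spread and again with overlap. The most abundant copy, MTATP6P1, had 6195 normalized counts and a fold change of 0.08 (SE 0.140) on the log2 scale. Whether the mitochondrial genes themselves varied between libraries in this way was not tested.

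The ribosomal RNAs of the mitochondrial genome had smaller errors than its subunit genes, and most of its tRNA genes had low counts. The libraries were prepared for mRNA, and the annotated tRNA genes are shorter than a read. The counts below are therefore not levels of mature rRNA or tRNA, and what share came from precursor or neighbouring RNA was not tested. Of the 22 rRNA and tRNA genes with an adjusted p-value, 1 was higher and 3 lower, and their median log2 fold change was -0.13. That is 18.2% called, against 47.1% of all genes tested. MT-RNR2, the large ribosomal RNA, fell from 119040.0 to 87986 normalized counts, a log2 fold change of -0.44 (SE 0.050, adjusted p = 4.19e-17), and MT-RNR1, the small ribosomal RNA, was lower at -0.13 (SE 0.045, adjusted p = 0.0113). MT-TP was lower at -0.52 (SE 0.078, adjusted p = 2.15e-10), and MT-TY was higher at 0.32 (SE 0.089, adjusted p = 7.79e-04). The extreme fold changes of the list were in low tRNA genes that were not called, MT-TD at -0.62 (SE 0.455) and MT-TG at 0.71 (SE 0.689).

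Per length, mitochondrial genes stood far above nuclear ones. On the scale of mean normalized counts per kb of annotated exon, the 13 mitochondrial genes lay between 33079.9 for MT-ND6 and 182133 for MT-ATP8, with a median of 88878. The nuclear members lay between 17.4 for NDUFV2 and 12346 for COX8A, with a median of 1447, so that the lowest mitochondrial level was above the highest nuclear one. In descending order the mitochondrial levels were MT-ATP8, MT-CO3 (178001), MT-CO2 (134439), MT-CO1 (130528), MT-ND4 (118740.0), MT-ATP6 (115147), MT-ND4L (88878), MT-ND1 (70029), MT-CYB (68859), MT-ND2 (47567), MT-ND3 (46561), MT-ND5 (36399.5) and MT-ND6. Complex IV and V genes thus held 5 of the 6 highest places and complex I genes the 4 lowest. The spread between libraries is unknown for these levels, and the overlapping pairs MT-ATP8 with MT-ATP6 and MT-ND4L with MT-ND4 share sequence, so neighbours in this order cannot be ranked with certainty. By complex, the nuclear medians were 724 for complex I, 1790 for complex II, 2350 for complex III and 4296 for complex IV. With the length of the canonical transcript in place of all annotated exons, the nuclear median was 4258 and the mitochondrial one did not change. The nuclear extremes were then NDUFA7 at 49.8 and COX6B1 at 24172, the latter still below MT-ND6. Per kb of annotated exon, ATP5B, a complex V gene under an older symbol, was at 21750, above COX8A. The 13 mitochondrial genes together took 2.69% of all normalized counts and the 62 nuclear ones 0.791%.

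**Figure D4:**
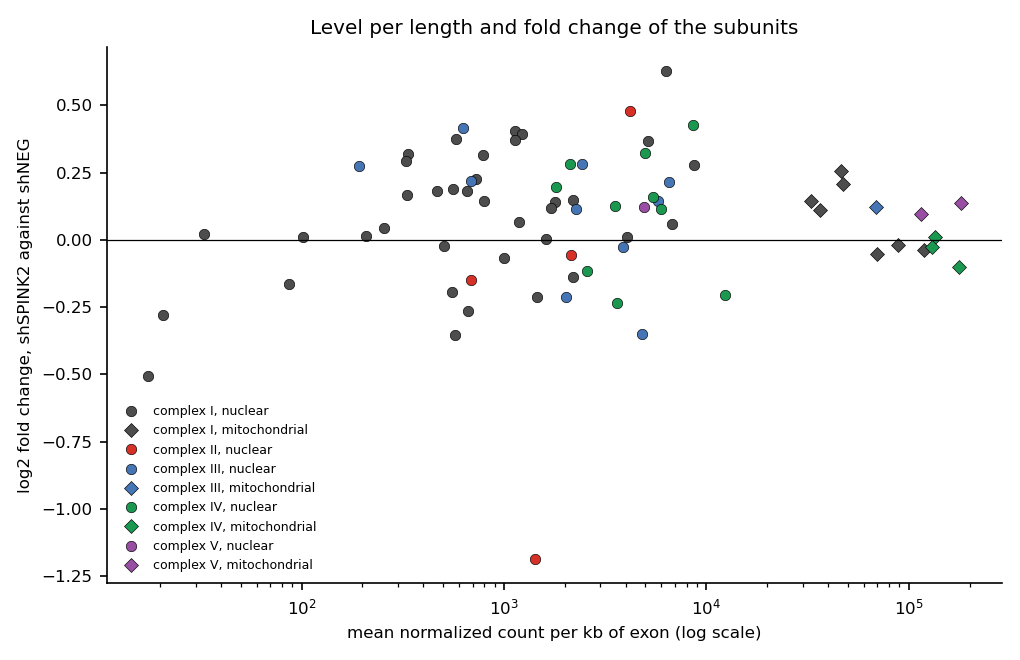
Log2 fold change of shSPINK2 against shNEG (y axis) against the mean normalized count per kb of exon (x axis, log scale) for the 75 subunits with an adjusted p-value, coloured by complex, with circles for nuclear and diamonds for mitochondrial genes. The mitochondrial genes lay between 33080 and 182133 per kb within 0.26 of zero, while the nuclear ones were spread from below 100 to 12346 per kb.

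Of 18 complex I assembly factors, 2 were higher and 9 lower, or 11.1% and 50.0%, against 32.9% and 37.9% of all genes with a mean of 1000 or more, with a median log2 fold change of -0.13. NDUFAF3 fell from 2327 to 1468 normalized counts, a log2 fold change of -0.67 (SE 0.053, adjusted p = 7.62e-35), and NDUFAF4, its partner in early assembly, was lower at -0.46 (SE 0.076). NDUFAF1 was higher at 0.51 (SE 0.055, adjusted p = 1.96e-19), as was DMAC1 at 0.21 (SE 0.061). The 38 assembly factors of complexes II to V had 12 higher and 10 lower, or 31.6% and 26.3%, and a median of -0.01. The lowest were TACO1, a translational activator of MT-CO1, at -0.85 (SE 0.070, adjusted p = 1.48e-32) and COX20, a chaperone of MT-CO2, at -0.74 (SE 0.225), and the highest were SDHAF4, an assembly factor of complex II, at 0.59 (SE 0.136, adjusted p = 5.37e-05) and COA5 at 0.49 (SE 0.073).

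Of 11 further subunits, isoforms and partners outside the symbol rule, 6 had an adjusted p-value, 3 higher and 1 lower, with a median of 0.04. That is 66.7% called on a list of 6 genes, near the 70.8% of all genes with a mean of 1000 or more. NDUFA4L2, a relative of NDUFA4 known as a hypoxia-responsive gene, was higher at 0.73 (SE 0.085, adjusted p = 4.80e-17), and COX7A2L, a factor in supercomplex formation, at 0.26 (SE 0.050). NDUFAB1, the acyl carrier protein of complex I, was lower at -0.22 (SE 0.045). COX6B2, with a mean of 16.8, had -0.62 (SE 0.461) and was not called. CYCS, the cytochrome c that links complexes III and IV, was not called at -0.10 (SE 0.050). The ATP synthase inhibitor ATP5IF1, listed as ATPIF1, was higher at 0.18 (SE 0.047, adjusted p = 2.51e-04).

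Regulators of respiratory genes and factors that express the mitochondrial genome act upstream of the subunits. Of 9 regulators, none was higher and 5 were lower by the authors' DESeq2 test, and the same number passed an unadjusted p under 0.05, with a median of -0.23. That is 55.6% lower, against 37.9% of all genes with a mean of 1000 or more, on a list of 9 genes. NRF1 fell from 1394 to 819 normalized counts, a log2 fold change of -0.77 (SE 0.067, adjusted p = 2.64e-29), and GABPB1, the partner of GABPA, was lower at -0.67 (SE 0.063, adjusted p = 3.47e-25). GABPA itself was not called at 0.12 (SE 0.060), and neither were PPARGC1A (0.04, SE 0.077) and ESRRA (0.01, SE 0.056). PPARGC1B (-0.46, SE 0.053), PPRC1 (-0.25, SE 0.043) and YY1 (-0.23, SE 0.047) were lower. Whether any of these regulators had a part in the changes of the subunits was not tested.

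Of 24 genes for transcription and RNA processing of the mitochondrial genome, 5 were higher and 11 lower, or 20.8% and 45.8%, with a median of -0.06. With 66.7% called, this list was near the 70.8% of all genes above that mean. TFAM, which packages mitochondrial DNA and starts its transcription, was lower at -0.23 (SE 0.055, adjusted p = 7.85e-05), the polymerase POLRMT at -0.19 (SE 0.047, adjusted p = 2.22e-04), and LRPPRC, which stabilises mitochondrial mRNAs, at -0.15 (SE 0.045, adjusted p = 0.00199). The lowest were KIAA0391, the nuclease subunit of mitochondrial RNase P, at -0.48 (SE 0.120) and PNPT1 at -0.34 (SE 0.045), and the highest were HSD17B10, another RNase P subunit, at 0.36 (SE 0.042) and TOP1MT at 0.28 (SE 0.047). Of 9 genes for replication of the mitochondrial genome, 2 were higher and 5 lower (22.2% and 55.6%), with a median of -0.14. PRIMPOL (-0.45, SE 0.137) and TK2 (-0.37, SE 0.095) were the lowest, and POLG2 (0.40, SE 0.074) and DGUOK (0.28, SE 0.049) the highest. Among 14 enzymes of the tricarboxylic acid cycle outside complex II, 2 were higher and 6 lower (14.3% and 42.9%, the latter near the 37.9% of the background), with a median of -0.06. FH, the fumarase that follows complex II in the cycle, was the lowest at -0.69 (SE 0.046, adjusted p = 6.79e-50), followed by IDH3A at -0.45 (SE 0.053), and SUCLG2 (0.47, SE 0.055) and IDH3G (0.28, SE 0.058) were the highest.

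Words of the SPINK2 shRNAs were also counted in the 3′ untranslated regions of the members. The first word is bases 10 to 16, in capitals, of the second shRNA as the labels print it, counted from its 5′ end.

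shRNA2: cgccaaactGCTCTCAgtata

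The word GCTCTCA was in 3 of 62 nuclear members (4.84%), NDUFS1, NDUFA10 (0.01, SE 0.052) and UQCRB, against 10.5% of 11183 genes whose mean was 50 or more. Among these genes the median log2 fold change was -0.20 with the word and 0.00 without it. GCTCTCA was taken from earlier work on these same data, so this difference is a description and gives no independent support. Of the 3 members, NDUFS1 was lower, NDUFA10 was not called and UQCRB was higher. The last bases of the same shRNA, positions 15 to 21, are complementary to the start of the guide strand. Their word CAGTATA was in the 3 members SDHD, NDUFS1 and NDUFA5, which were lower, lower and higher, and in 11.2% of all these genes, with medians of 0.00 with it and -0.02 without it. The median of the 3 members was -0.35. The sites in SDHD and NDUFS1, the lowest called members of complexes II and I, are shown on the strand of the transcript in GRCh38, with the word in capitals. The word CAGTATA and NDUFA10 were likewise chosen after the values were seen.

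SDHD, chr11:112095214-112095242, plus strand: tataagactcaCAGTATAactaaacatga

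NDUFS1, chr2:206117659-206117687, minus strand: tgggtgcggtgGCTCTCAtaaggccagga

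NDUFS1, chr2:206117330-206117358, minus strand: caagaagctaaCAGTATActaaaagagat

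Bases 14 to 20, which pair with the seed of the guide, gave the word TCAGTAT in NDUFB5, NDUFA3 and NDUFA5 for the second shRNA and TCATAAT in 6 members for the first, with member medians of 0.37 and 0.14. Bases 15 to 21 of the first shRNA, CATAATA, were in NDUFS1, NDUFA9, NDUFB5 and SDHC, with a member median of -0.01. Whether any member was a direct target of an shRNA was not tested.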

How the data were processed

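Gene expression was measured by RNA-seq of mRNA libraries of FUJIOKA cells, 3 shNEG and 3 shSPINK2, with paired reads of 150 bases. After FastQC, the authors used STAR 2.7.11 for alignment to GRCh38, featureCounts for gene counts and DESeq2 1.40.0 for the comparison, with versions from the submitters' processing notes. The annotation release and strandedness are not given in the sources used here.

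The deposited table of the authors holds 1 signal per gene, the mean over 6 libraries of counts divided by size factors. It further holds log2 fold changes and standard errors from the authors' DESeq2 fit, a Wald score deposited beside them, and the deposited p-value with its Benjamini-Hochberg adjustment. These columns are the authors' own comparison and were used because no value per library could be read from the table. No model was fitted again. Group means were computed from the mean and the fold change, and 95% intervals from the SE and the normal distribution.

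The depth per library is not listed, and the sum of the means stands for it. For genes with a mean under 100, whole reads per library were recovered. Genes with 1 read in 1 library share 6 means, from which the size factors follow, and a group was taken from whether their fold change is above or below 0. Reads were then the whole numbers that gave back the mean, with a log2 ratio no more than 0.02 from the deposited one. Of 100 random genes with low means 100 had 1 solution, as had 15 of 15 with means near the upper limit. Recovered libraries carry no replicate number. The recovery and the counting of calls were tested on simulated data.

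Gene positions, lengths and transcripts came from GENCODE 44 by Ensembl identifier, which matched 17233 of 17395 genes. Of 23 pseudogene rows that fit the symbol pattern and were left out, the highest mean was 227.

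Members and lists were chosen with earlier results of these data known. Named genes are all mitochondrial and complex II members, the 4 highest and 4 lowest nuclear members of each other complex by fold change, the 3 largest Wald statistics in each direction, members without an adjusted p-value or past a log2 fold change of 1, the 2 highest and 2 lowest of each further list, 12 fixed regulators and partners, and SPINK2. The values of some genes are not reported here. Every other named gene was chosen after its value was seen. Alternatives were other thresholds, adjustments, centrings, minimum means, lengths and member sets. Scripts ran under Python 3.11.15 with pandas 2.3.3, numpy 2.4.6 and scipy 1.17.1, and figures were drawn with matplotlib 3.10.9.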

Additional observations from a re-analysis of the deposited data

How the results depend on the processing

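Of the 48 members called, 24 (18 higher, 6 lower) passed a Bonferroni adjustment, and 21, 2 and 1 passed an added absolute log2 fold change over 0.25, 0.5 and 1. Testing against a log2 fold change of 0.25 left 8 (6 higher, 2 lower). These counts are those of the nuclear members too. Of all genes tested, 4.28% were called past an absolute log2 fold change of 1. Shares of all genes for the other counts above were not computed, so those counts have no background. A threshold of 0.01, adjustment over every gene with a p-value, both centrings, minimum means of 50 and 1000 and the complex V subunits under older symbols gave between 39 and 58 calls. Without the members that GENCODE 44 marks as overlapping another locus and without UQCRHL, 28 were higher and 5 lower of 42 nuclear members, the median of complex II without SDHA and SDHD turned to 0.21, and that of complex III was 0.13. The mean of complex III weighted by 1/SE squared was 0.0605. Under each of these settings no mitochondrial gene was called. The nuclear median level per kb was 4258 with canonical transcripts.

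No paired analysis was possible because the deposited table has no values per library and recovered libraries carry no replicate number. For the same reason leaving out each replicate across all genes, a replicate block and another count test were not run. In recovered reads, leaving out 1 library at a time gave a log2 ratio of -0.10 to 0.15 in NDUFA13, -0.22 to 0.29 in the SDHD readthrough entry, -0.61 to -0.43 in NDUFV2 and -0.40 to -0.13 in NDUFA7, and the first 2 changed sign. Counts limit the low members, and standard errors near 0.12 limit the mitochondrial ones.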
